A study of Homo sapiens with 18 samples.

Results

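Expression of 8 voltage-gated sodium channel genes was followed by RNA-seq in SH-SY5Y, a human neuroblastoma cell line of long standing that can be differentiated toward neuron-like cells. The genes were taken by symbol from a table of 26372 gene symbols: SCN1A, SCN2A, SCN3A, SCN8A and SCN9A, which encode pore-forming alpha subunits, and SCN2B, SCN3B and SCN4B, which encode auxiliary beta subunits. All 8 symbols were found, once each. The cells had received a lentiviral construct, made in the FUGW plasmid, that carried ZNHIT3 in its wild-type form (WT), with the substitution C14R, or with a deletion near its end. The replicates of the deletion are labelled ∆251-254, ∆251-255 and ∆251-256 in turn, whereas the design text gives ∆251-254 alone. The series title links ZNHIT3 to the assembly of small nucleolar ribonucleoproteins. Each construct was sampled before differentiation (day 0) and after 18 days of it, which gave 6 groups of 3 libraries and 18 libraries in all. Differentiation began 48 hours after infection, in serum-free neurobasal medium with B27, BDNF, KCl, dibutyryl cyclic AMP and all-trans retinoic acid. All groups came from 1 cell line and received a vector, and no group without a ZNHIT3 construct was analysed here.

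Voltage-gated sodium channels open on depolarization and carry the fast inward sodium current of the rising phase of the action potential. The alpha subunit forms the pore and the voltage sensors by itself, while beta subunits, single-pass membrane proteins with an immunoglobulin-like domain, alter gating and surface expression. Nav1.2 (SCN2A), Nav1.3 (SCN3A) and Nav1.6 (SCN8A) are channels of central neurons, Nav1.1 (SCN1A) is prominent in inhibitory interneurons, and Nav1.7 (SCN9A) is best known from sensory and sympathetic neurons, the second being the lineage from which neuroblastoma arises.

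The values were FPKM, numbers of fragments scaled to transcript length, so that levels can be compared between genes. By definition the unit is also scaled to all mapped fragments, but how these libraries were scaled is not given in the sources used here. The sum of FPKM ran from 9.88e+05 to 2.22e+06 in day 0 libraries and from 5.54e+05 to 9.90e+05 in day 18 libraries, and the small nucleolar RNA SNORD3A alone held 6.88% to 58.6% and 1.01% to 15.1% of those sums. Upper quartiles were closer, from 16.8 to 17.4 in all libraries, and median-of-ratios size factors lay between 0.9885 and 1.017. Median-of-ratios scaling, used below as an alternative, therefore changed the deposited values little. The relative depth read from single-fragment steps was 58.6% to 84.7% of the deepest library at day 0 and 81.8% to 100% at day 18. The median was lower at day 0 (75% against 96.6%), and the ranges overlapped. The steps were read from scaled values, so they may also carry the unknown library scaling. ZNHIT3 itself lay at 531 to 542 FPKM in WT, 419 to 432 in C14R and 292 to 310 in deletion on day 0, and at 1103 to 1193, 600 to 756 and 294 to 313 on day 18, highest in WT and lowest in deletion on both days. C14R replicate 1 of day 18 stood apart from the other libraries on the second principal component, at 24.8 against a range of -8.27 to 9.27. The labels do not say whether libraries of a group came from separate cultures, so p-values measure the spread between these libraries, which may be technical.

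Of 10 sympathoadrenal markers, the lineage of the line, 9 averaged at least 1 FPKM in every group, and their summed level went from 962–1050 at day 0 to 2150–2403 at day 18. CHGB, a secretory granule protein, and DBH, the enzyme that makes noradrenaline, made up most of that difference, with day means of 90.6 and 985 FPKM and of 63.3 and 423. In WT 4 of the 9 tested were higher, 3 were lower (GATA2 at a log2 change of -1.88, GATA3 at -0.47 and CHGA at -0.38) and 2 were not past the threshold of the limma test used below, with a median of 0.09, so the list did not rise as a whole. The marker under 1 FPKM was TH, tyrosine hydroxylase. The 8 glial and Schwann cell markers summed to 3.74–5.32 FPKM at day 0 and 7.72–9.83 at day 18, with OLIG2 listed at 0 in 5 of the 6 groups, and the 8 muscle markers summed to 0.498–1.26 and 0.356–1.08 with NKX2-5 at 0 in all libraries. The 8 mesenchymal markers went from 459–504 to 107–130 FPKM, and the 10 proliferation genes from 420–461 to 150–194. The sympathoadrenal, glial, mesenchymal and proliferation sums were separated by day, as most sodium channel genes were, and the muscle sums overlapped between the days. Their part in the results was not tested. In bulk RNA a change in the number of cells that express a gene and a change in RNA per cell cannot be told apart.

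The members lie on 3 chromosomes. In GENCODE release 29 on GRCh38 (the submitters' processing notes name hg38), 4 of the 5 alpha genes lie within 1288480 bp of chromosome 2: SCN3A (chr2:165087522-165204067, minus strand), SCN2A (chr2:165194993-165392310, plus), SCN1A (chr2:165984641-166149214, minus) and SCN9A (chr2:166195185-166376001, minus). SCN8A lies at chr12:51590266-51812864 on the plus strand. On chromosome 11, SCN4B (chr11:118133377-118152888, minus) and SCN2B (chr11:118161951-118176673, minus) are separated by 9062 bp, and SCN3B (chr11:123629187-123655244, minus) lies 5452513 bp beyond SCN2B. Exons of the alpha genes overlap those of non-coding genes that the table does not list by these names. AC010127.1 shares 469 exonic bp with SCN1A and 1122 with SCN9A, AC068987.2 shares 896 with SCN8A and AC019197.1 shares 975 with SCN3A, each on the opposite strand, and AC019197.1 also shares 240 bp with SCN2A on its own strand. Whether reads were assigned by strand is not given in the sources used here, so reads of these pairs cannot be told apart.

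Promoter windows from RefSeq (GRCh38.p14), running from 250 bases before to 50 after a start, were found for 6 of the 8 members, 8 windows in all. SCN3A and SCN3B had no window. Some of the windows lie inside the gene as annotated in GENCODE. The window of SCN4B (from 118145384) lies inside a gene whose 5′ end is at 118152888. Both windows of SCN2A (from 165239164 and 165240810) lie inside a gene that starts at 165194993. So does 1 window of SCN1A (from 166127971), with the 5′ end of the gene at 166149214. The windows below belong to genes that lie side by side or behaved in opposite ways over the time course, and are shown so that the base composition of these windows can be compared. They are written 5′ to 3′ on the gene's strand, with matches to the GC box core GGGCGG, or its reverse complement CCGCCC, in capitals.
SCN2B (chr11:118176590-118176889, minus): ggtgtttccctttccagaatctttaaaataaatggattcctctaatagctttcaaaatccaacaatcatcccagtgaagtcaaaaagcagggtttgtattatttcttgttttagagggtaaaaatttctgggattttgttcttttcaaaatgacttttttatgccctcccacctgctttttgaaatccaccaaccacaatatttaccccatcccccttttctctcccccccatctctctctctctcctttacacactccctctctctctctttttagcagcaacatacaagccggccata
SCN4B (chr11:118145384-118145683, minus): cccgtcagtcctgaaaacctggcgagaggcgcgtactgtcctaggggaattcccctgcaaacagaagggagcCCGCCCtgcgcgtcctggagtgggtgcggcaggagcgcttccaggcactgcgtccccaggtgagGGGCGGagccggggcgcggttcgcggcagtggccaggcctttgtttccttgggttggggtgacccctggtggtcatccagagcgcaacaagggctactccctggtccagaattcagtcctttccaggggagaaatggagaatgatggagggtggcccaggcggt
SCN8A (chr12:51590983-51591282, plus): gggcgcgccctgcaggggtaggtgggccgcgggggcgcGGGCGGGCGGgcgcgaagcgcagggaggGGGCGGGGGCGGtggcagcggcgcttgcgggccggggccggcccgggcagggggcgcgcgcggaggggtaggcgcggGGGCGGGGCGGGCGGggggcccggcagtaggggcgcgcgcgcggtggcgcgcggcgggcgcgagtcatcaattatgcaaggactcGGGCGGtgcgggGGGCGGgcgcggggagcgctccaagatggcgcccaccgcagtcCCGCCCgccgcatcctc
SCN9A (chr2:166375895-166376194, minus): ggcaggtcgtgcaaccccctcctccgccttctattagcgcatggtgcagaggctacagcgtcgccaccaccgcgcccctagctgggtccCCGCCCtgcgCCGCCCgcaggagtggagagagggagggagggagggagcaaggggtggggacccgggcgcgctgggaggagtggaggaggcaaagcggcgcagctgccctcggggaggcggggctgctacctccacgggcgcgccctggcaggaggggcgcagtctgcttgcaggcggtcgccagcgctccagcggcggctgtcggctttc

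The window of SCN8A was 84% G and C, above 99.5% of the 35116 windows in the table, and held 10 matches, some of which overlap. That of SCN9A was 73.3% and that of SCN4B 64.7%, each with 2 matches. The median window was 58.7% G and C, and 45% of all windows had at least 1 match. SCN2B, at 39.7%, had 0 matches, as did both windows of SCN1A (37% and 46.3%) and both of SCN2A (31.7% and 33.3%). Among members with a window, those higher at day 18 thus included both the most GC-rich window and all 5 of the AT-rich ones, among them the windows inside SCN2A and SCN1A. SCN3A and SCN3B, also higher at day 18, are not covered. These are matches of letters in a window, with no measurement of binding.

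Over the 18 days the transcripts of the sodium channel family were redistributed. Those of SCN9A, the most abundant at day 0, fell in the values as deposited and made up a smaller share of the alpha subunit transcripts, while SCN2A, SCN3A, SCN8A and SCN3B rose, and SCN1A and SCN2B went from near 0 to about 1 to 2 FPKM. Changes were estimated with limma on log2(FPKM + 1) across 13785 genes with a mean FPKM of at least 1, with Benjamini-Hochberg adjustment and a threshold of 0.05. SCN1A and SCN2B, with means of 0.587 and 0.957 FPKM, were under this limit and were tested only in a fit of all 21412 genes above 0 in any library. Of the 6 members tested, 4 were higher, 1 lower and 1 past the threshold in neither direction, in each of the 3 lines. Among all genes tested, 72.2% were past the threshold in WT (38.2% higher and 34.0% lower), 72.9% in C14R (37.9% and 35.0%) and 73.0% in deletion (38.6% and 34.4%); most genes were thus called in this contrast. The median log2 change of the 6 tested members was 0.75 in WT, 0.74 in C14R and 0.76 in deletion, against 0.03, 0.02 and 0.03 over all genes tested.

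SCN9A, which encodes Nav1.7, was the most abundant alpha subunit transcript. Its day 0 levels were 33.4, 35.1 and 36.0 FPKM in WT, 35.0, 33.9 and 33.3 in C14R and 34.6, 36.1 and 34.2 in deletion. At day 18 they were 25.8, 26.1 and 27.6 in WT, 29.1, 25.8 and 26.2 in C14R and 25.7, 25.0 and 26.5 in deletion. All 9 day 18 libraries were below all 9 day 0 libraries, as for 26.9% of the genes tested, and the highest of them was C14R replicate 1. The log2 change was -0.38 in WT, -0.32 in C14R and -0.43 in deletion (SE 0.05 each, limma adjusted p = 1.45e-06, 9.86e-06 and 3.33e-07). This fall depended on the scaling. When small RNA genes were left out and the libraries rescaled, it was -0.18, -0.14 and -0.21 (adjusted p = 0.00589, 0.0222 and 0.0015), while the median of all genes moved to 0.21, 0.18 and 0.23. When snoRNA and scaRNA genes alone were left out, a setting chosen after seeing the data, SCN9A was at -0.06, 0.06 and -0.12 and not past the threshold (adjusted p = 0.718, 0.694 and 0.471), with medians of 0.32, 0.37 and 0.31. Relative to the median of all genes SCN9A was lower by similar amounts under 4 scalings (as deposited, median-of-ratios and both of these), from -0.41 to -0.38 in WT, from -0.35 to -0.31 in C14R and from -0.46 to -0.43 in deletion. Rescaling multiplies all genes of a library alike, so this similarity was nearly fixed in advance and is no check of the fall.

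SCN2A, which encodes Nav1.2, had day 0 levels of 10.8, 10.3 and 10.8 FPKM in WT, 10.6, 10.4 and 10.6 in C14R and 10.5, 11.1 and 10.5 in deletion. Its day 18 levels were 16.9, 16.1 and 17.0, then 17.4, 16.0 and 16.4, then 16.3, 16.5 and 17.1 in the same order. The days did not overlap, and the 9 libraries of a day lay close together. Among the genes tested, 29.8% had all day 18 libraries above all day 0 libraries, as SCN2A, SCN3A, SCN8A and SCN3B did. It rose by a log2 change of 0.60 in WT, 0.61 in C14R and 0.59 in deletion (SE 0.04, limma adjusted p = 1.7e-09, 1.48e-09 and 2.3e-09). With snoRNA and scaRNA genes left out it was 0.91, 0.99 and 0.89.

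SCN3A, which encodes Nav1.3, a channel best known from the developing nervous system, had day 0 levels of 6.91, 6.17 and 7.36 FPKM in WT, 7.05, 7.21 and 7.26 in C14R and 6.56, 6.54 and 6.89 in deletion. At day 18 the levels were 16.3, 17.3 and 16.4 in WT, 17.4, 16.4 and 15.8 in C14R and 16.1, 16.0 and 16.7 in deletion. Every day 18 library was above every day 0 library, and the level of SCN3A reached that of SCN2A. The log2 change was 1.18, 1.10 and 1.17 in WT, C14R and deletion (SE 0.06, limma adjusted p = 3.52e-12, 9.04e-12 and 3.55e-12).

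SCN8A, which encodes Nav1.6, the main channel of the mature axon initial segment and the nodes of Ranvier, had day 0 levels of 3.92, 4.05 and 4.26 FPKM in WT, 4.29, 4.05 and 4.11 in C14R and 3.76, 4.08 and 3.99 in deletion. The day 18 levels were 7.85, 8.45 and 8.94 in WT, 8.29, 8.45 and 8.59 in C14R and 8.33, 8.41 and 8.65 in deletion. Both days were again fully separated, and the widest group was WT at day 18. SCN8A rose by a log2 change of 0.89, 0.87 and 0.94 (SE 0.06, limma adjusted p = 1.94e-10, 2.49e-10 and 9.4e-11).

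SCN1A, which encodes Nav1.1, was close to the lower limit of the data at day 0, with 0.0302 to 0.185 FPKM over 9 libraries and a median of 0.103. At day 18 it lay between 0.889 and 1.2 FPKM with a median of 1.04. No library of one day overlapped the other, as for 22.2% of the 21412 genes in the upward and 18.9% in the downward direction, and the ratio of the day means was 9.85. The log2(FPKM + 1) change was 0.91, 0.83 and 0.96 in WT, C14R and deletion in the fit without a filter (limma adjusted p = 2.91e-09, 8.13e-09 and 1.45e-09). In that fit 30.2%, 29.1% and 30.2% of genes were called higher. With a pseudocount of 0.1 these changes became 2.52, 2.22 and 2.83, because the size of a change from a level this low is set largely by the pseudocount. As FPKM carry no counts, no counting error can be given for these low values.

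**Figure D1:**
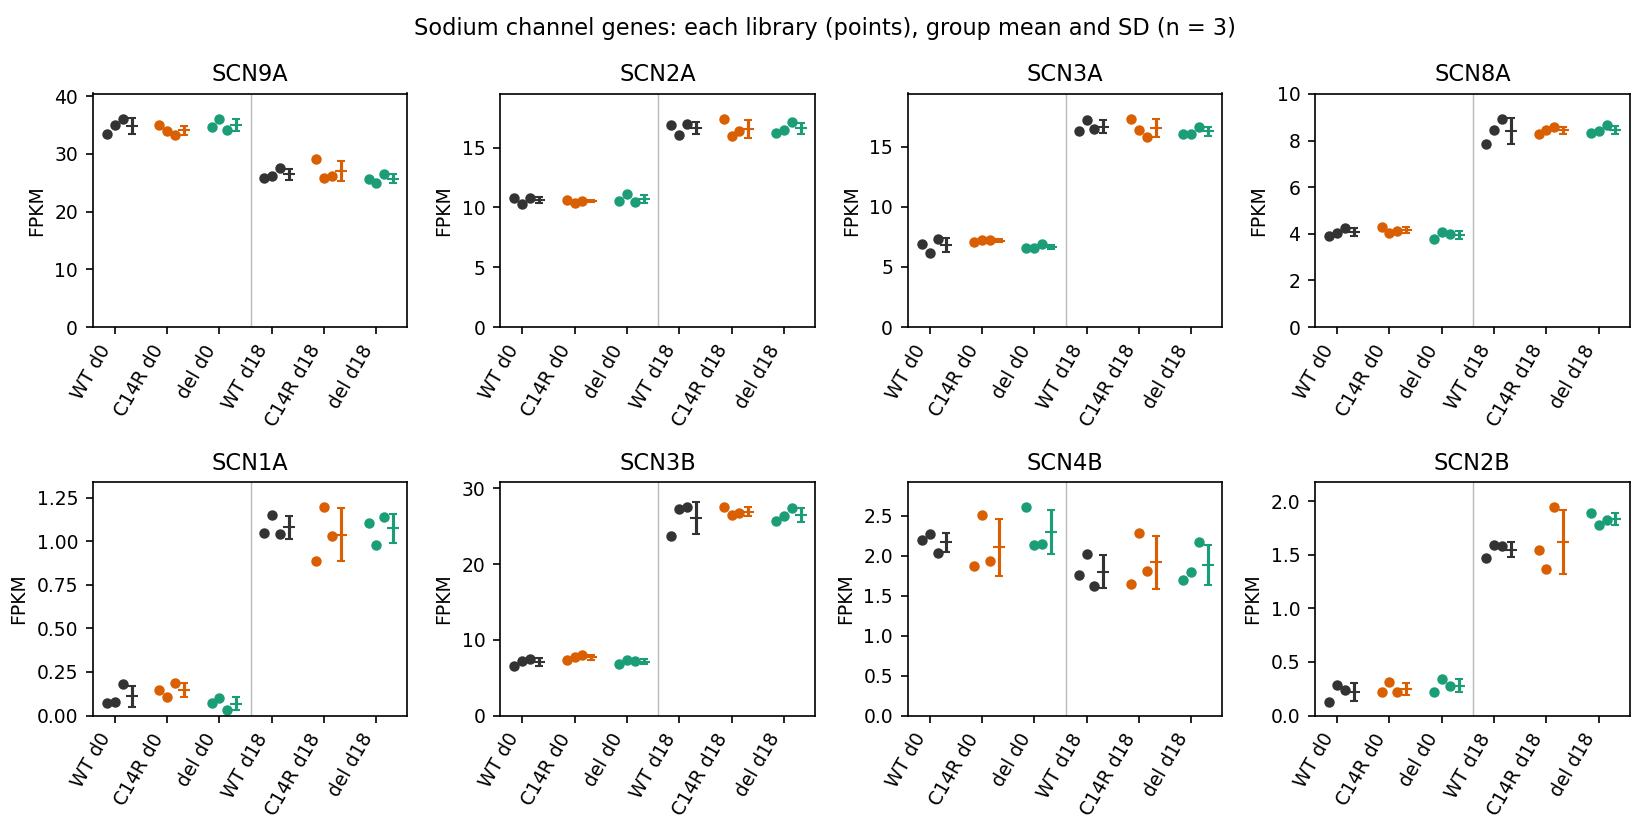
FPKM of the 8 sodium channel genes (vertical axes, linear, from 0, with a scale of their own) in the 6 groups of construct and day; points are the 3 libraries of a group, and the bar beside them is the mean with its SD. As deposited, SCN9A steps down from day 0 to day 18, a fall that was not called in a scaling without snoRNA and scaRNA genes, and SCN4B overlaps between the days, while the other 6 genes step up in WT, C14R and deletion (del) alike.

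Among the auxiliary subunits, SCN3B had the largest difference between the days in FPKM and in log2(FPKM + 1), while the ratio of the day means was larger for SCN2B (6.69) than for SCN3B (3.63). It encodes beta3, which associates with the alpha subunit without a covalent bond. Day 0 levels of SCN3B were 6.54, 7.21 and 7.47 FPKM in WT, 7.35, 7.72 and 8.04 in C14R and 6.76, 7.34 and 7.23 in deletion. Day 18 levels were 23.7, 27.2 and 27.5 in WT, 27.5, 26.5 and 26.8 in C14R and 25.7, 26.3 and 27.4 in deletion. The days were separated by a wide gap, with WT replicate 1 the lowest library of each. The log2 change was 1.75, 1.68 and 1.76 in WT, C14R and deletion (SE 0.06, limma adjusted p = 5.36e-14, 9.1e-14 and 4.69e-14).

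SCN2B encodes beta2, which is linked to the alpha subunit by a disulfide bond. It was at 0.129 to 0.345 FPKM at day 0 (median 0.238) and at 1.37 to 1.95 at day 18 (median 1.59), without overlap, as for 22.2% of the 21412 genes in the upward direction. Its log2(FPKM + 1) change in the fit without a filter was 1.07, 1.06 and 1.15 (limma adjusted p = 8.26e-09, 8.71e-09 and 3.5e-09). Of all genes in that fit, 30.2%, 29.1% and 30.2% were called higher. With a pseudocount of 0.1 the change of SCN2B was 2.41, 2.30 and 2.36.

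SCN4B, the neighbour of SCN2B on chromosome 11, encodes beta4, which is also disulfide-linked and whose cytoplasmic tail can act as a blocker of the open pore. It had day 0 levels of 2.19, 2.28 and 2.04 FPKM in WT, 1.87, 2.51 and 1.93 in C14R and 2.61, 2.13 and 2.15 in deletion. The day 18 levels were 1.76, 2.02 and 1.61 in WT, 1.65, 2.29 and 1.81 in C14R and 1.69, 1.80 and 2.17 in deletion. The days overlapped in C14R and in deletion, and in WT the day 18 libraries were lower without overlap, which held for 36.0% of the genes tested in WT. The log2 change was -0.18, -0.09 and -0.19 (SE 0.11, limma adjusted p = 0.135, 0.455 and 0.111), with 95% intervals of -0.40 to 0.04, -0.31 to 0.13 and -0.42 to 0.03. A change of the size seen for its neighbour lay outside these intervals, and a small fall did not. With snoRNA and scaRNA genes left out the sign turned, at 0.04, 0.18 and 0.03, and SCN4B was again not past the threshold.

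**Figure D2:**
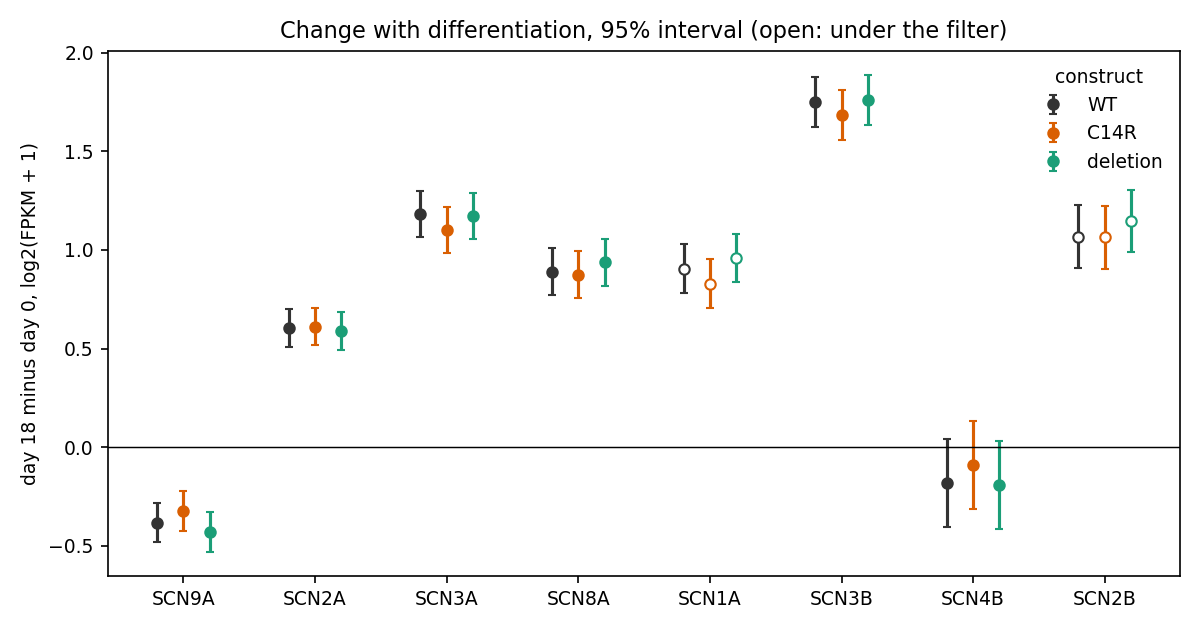
Difference between day 18 and day 0 in log2(FPKM + 1) (vertical axis) for each sodium channel gene (horizontal axis) in WT, C14R and deletion, with bars for the 95% interval from the limma fit; open points mark SCN1A and SCN2B, whose mean FPKM was under 1. The values of the 3 lines lie together for each gene, from -0.43 for SCN9A (-0.12 without snoRNA and scaRNA genes) to 1.76 for SCN3B in deletion.

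The order of the transcript levels per length changed with the day. At day 0 it was SCN9A, SCN2A, SCN3B, SCN3A, SCN8A, SCN4B, SCN2B and SCN1A, from high to low. The neighbours SCN3B and SCN3A overlapped in range, SCN3B being the higher in 8 of 9 libraries, as did SCN2B and SCN1A, although SCN2B was the higher in 9 of 9. At day 18 SCN3B and SCN9A shared the first place, SCN3B being the higher in 5 of 9 libraries. SCN2A and SCN3A came next with overlapping ranges, SCN2A above in 7 of 9, followed by SCN8A, by SCN4B and SCN2B (SCN4B above in 7 of 9) and by SCN1A.

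The summed FPKM of the 5 alpha members went from 56.3 (range 55.1 to 58.6) to 69.05 (66.9 to 73.1), without overlap. Within that sum SCN9A made up 61.5% (60.1 to 63.0) at day 0 and 38.3% (37.3 to 39.8) at day 18. The share of SCN2A went from 18.9% to 24.1%, that of SCN3A from 12.2% to 23.9%, that of SCN8A from 7.21% to 12.2% and that of SCN1A from 0.191% to 1.55%. The part of the alpha sum held by channels other than SCN9A therefore grew, and since a share is a ratio within a library it does not depend on how libraries are scaled. The ratio of SCN2A to SCN3A was 1.55 (1.44 to 1.70) at day 0 and 1.01 (0.931 to 1.04) at day 18.

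**Figure D3:**
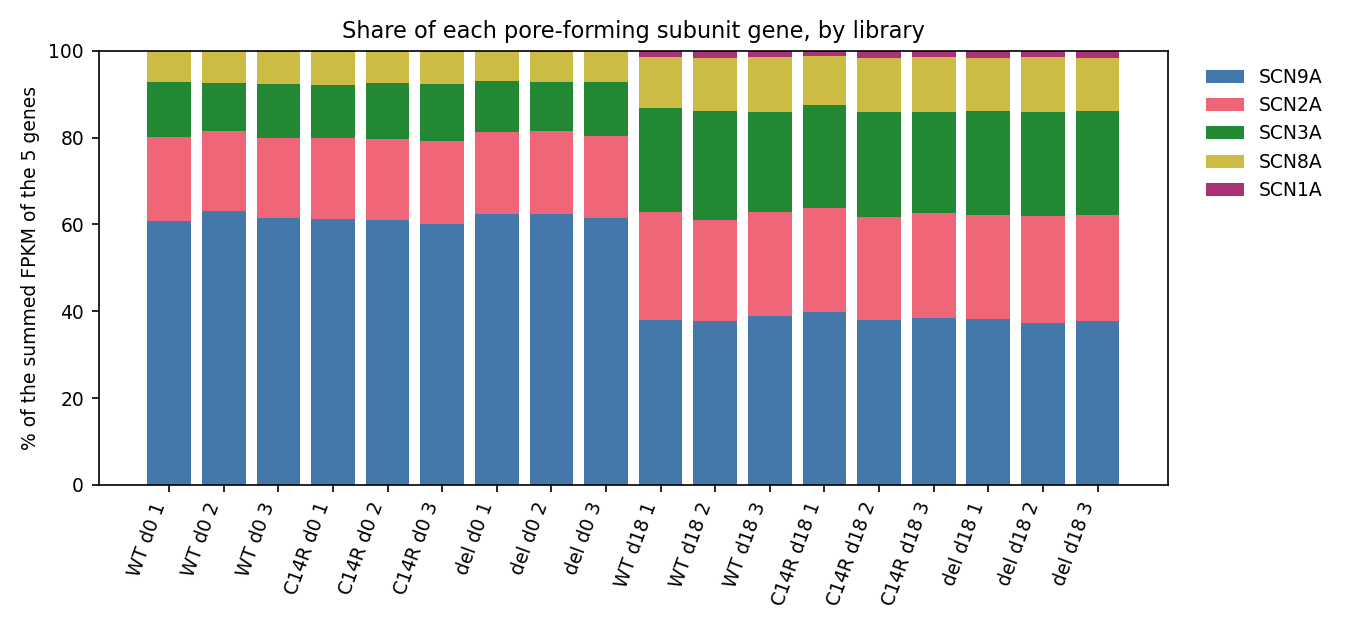
Share of each pore-forming subunit gene in the summed FPKM of the 5 alpha members (vertical axis, percent) in each of the 18 libraries (horizontal axis, by construct, day and replicate). SCN9A takes 60.1% to 63.0% of the sum in day 0 libraries and 37.3% to 39.8% in day 18 libraries, whichever construct the cells carried.

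The summed beta members went from 9.73 FPKM (8.86 to 10.5) to 30.04 (26.9 to 31.4). SCN3B held 74.9% of that sum at day 0 and 88.2% at day 18, and the share of SCN4B went from 22.5% to 6.22% while its level changed little. Set against the alpha sum of the same library, the beta sum was 17.3% (16.1 to 18.9) at day 0 and 43.5% (39.6 to 44.9) at day 18. These are ratios of transcripts and give no count of proteins.

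The constructs were then compared on each day, which asks whether the sodium channel genes differed between lines. The lines also differed in the level of ZNHIT3 RNA, so the variant and that level cannot be told apart here. In none of the 4 comparisons of a variant with WT did a member pass the threshold in limma (0 of 6 tested, and 0 of 8 in the fit without a filter). In the first fit 0.00% of all genes passed for C14R and 0.0290% for deletion at day 0, and 0.0363% for C14R and 0.0725% for deletion at day 18, and in the second 0.00%, 0.00934%, 0.0467% and 0.0747%. At an unadjusted p under 0.05 there were 388 (2.81%), 857 (6.22%), 1535 (11.1%) and 1576 (11.4%) genes in those comparisons, and 0 members among them. Without C14R replicate 2 of day 18, 126 genes in place of 5 passed for C14R against WT at day 18, with 0 members again. The comparisons of C14R and of deletion with WT use the same WT libraries.

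The intervals give the size of the differences that the data leave possible. At day 0 the difference from WT in C14R was -0.03 for SCN9A (95% interval -0.13 to 0.07), -0.01 for SCN2A (-0.11 to 0.08), 0.07 for SCN3A (-0.05 to 0.18), 0.02 for SCN8A (-0.10 to 0.14), 0.11 for SCN3B (-0.02 to 0.24) and -0.03 for SCN4B (-0.26 to 0.19), all on the log2(FPKM + 1) scale. In deletion at day 0 it was 0.01 for SCN9A (-0.10 to 0.11), 0.01 for SCN2A (-0.08 to 0.11), -0.03 for SCN3A (-0.14 to 0.09), -0.04 for SCN8A (-0.16 to 0.08), 0.01 for SCN3B (-0.12 to 0.14) and 0.06 for SCN4B (-0.17 to 0.28). The intervals of SCN9A and SCN2A were the narrowest and that of SCN4B the widest, in both variants.

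At day 18 the difference from WT in C14R was 0.03 for SCN9A (95% interval -0.07 to 0.13), -0.0047 for SCN2A (-0.10 to 0.09), -0.01 for SCN3A (-0.13 to 0.11), 0.01 for SCN8A (-0.11 to 0.13), 0.04 for SCN3B (-0.08 to 0.17) and 0.06 for SCN4B (-0.17 to 0.28). In deletion it was -0.04 for SCN9A (-0.14 to 0.06), -0.0029 for SCN2A (-0.10 to 0.09), -0.03 for SCN3A (-0.15 to 0.08), 0.01 for SCN8A (-0.11 to 0.13), 0.02 for SCN3B (-0.11 to 0.15) and 0.04 for SCN4B (-0.18 to 0.27). Every interval held 0. The changes that SCN2A, SCN3A, SCN8A and SCN3B made between the days were larger than any bound of their own intervals here.

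The smallest p of a member in these comparisons belonged to SCN2B, singled out after its values were seen. At day 18 it was at 1.89, 1.78 and 1.83 FPKM in deletion and at 1.47, 1.59 and 1.59 in WT, without overlap. The difference was 0.15 (95% interval -0.01 to 0.31) with an unadjusted p of 0.059 and an adjusted p of 0.502 in limma without a filter. Libraries of deletion were above those of WT without overlap for 7.86% of the genes in that fit. For SCN1A the differences from WT on the log2(FPKM + 1) scale lay between -0.06 and 0.04, a scale that compresses levels this low. In FPKM its day 0 mean was 131% of the WT mean in C14R and 60.9% in deletion, and the ratio of its day means was 9.71 in WT, 7.14 in C14R and 15.9 in deletion. These ratios rest on day 0 values of 0.0302 to 0.185 FPKM and have no test of their own.

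C14R and deletion were also set against each other. At day 0 the libraries of C14R were above those of deletion without overlap for SCN1A, SCN3A and SCN3B, a relation found in that direction for 8.02% of the genes without a filter and for 10.5% of those tested. The log2 differences were 0.10, 0.09 and 0.10, and none passed the threshold in limma (adjusted p = 0.688 without a filter for SCN1A, 0.592 for SCN3A and 0.592 for SCN3B), as for 0.0580% of all genes tested. At day 18 every member overlapped between the 2 variants, and 0 of 6 passed, against 0.0290% of all genes tested.

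Whether the response to differentiation itself differed between lines was tested as an interaction. For C14R against WT the difference between the day changes ranged from -0.08 for SCN3A to 0.09 for SCN4B over the 6 tested members, and for deletion from -0.05 for SCN9A to 0.05 for SCN8A. The smallest adjusted p of a tested member was 0.955 and 0.941, and 0.00% and 0.0145% of all genes tested passed. The widest interval was that of SCN4B, from -0.23 to 0.41 in C14R and from -0.33 to 0.30 in deletion.

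**Figure D4:**
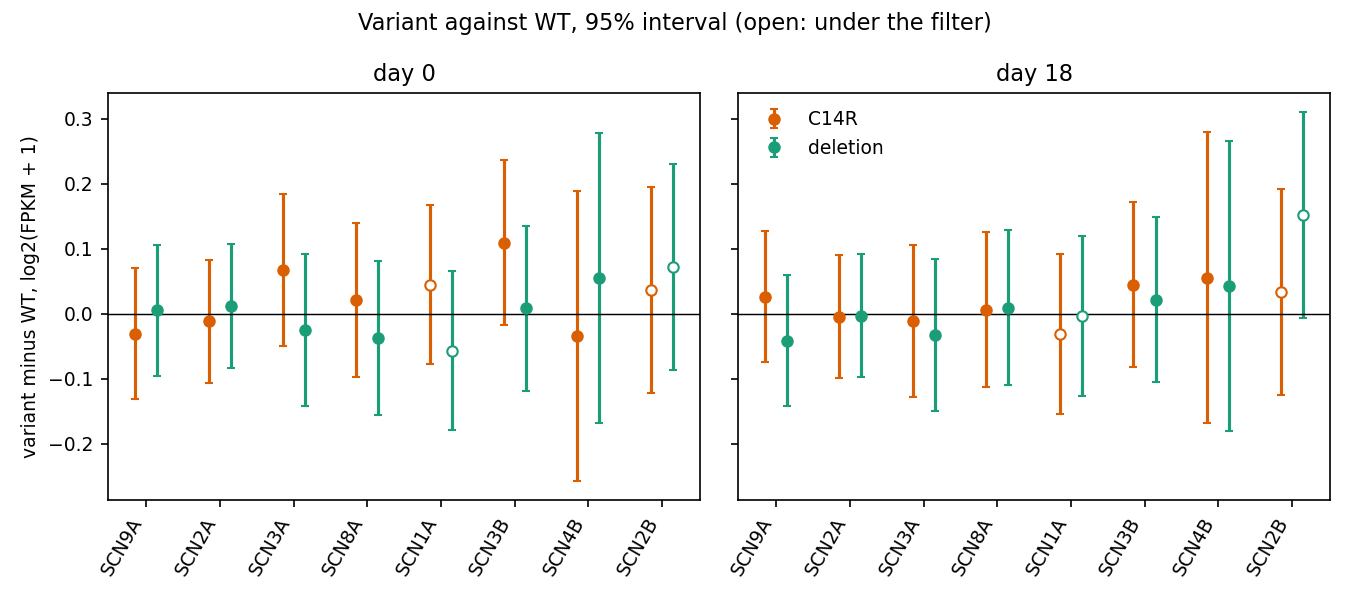
Difference between each variant and WT in log2(FPKM + 1) (vertical axis) for the 8 sodium channel genes at day 0 (left) and day 18 (right), with bars for the 95% interval from the limma fit; open points mark genes with a mean FPKM under 1. All intervals include 0, and the point farthest from it is SCN2B in deletion at day 18, at 0.15.

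Of the other genes of the family in the table, SCN11A, Nav1.9 of sensory neurons, was at 1.31 to 1.98 FPKM at day 0 and at 0.586 to 0.921 at day 18, and fell in WT, C14R and deletion (log2 change -0.46, -0.53 and -0.67, limma adjusted p = 0.000536, 0.000135 and 1.09e-05). SCN11A kept its direction and its call in each of those 4 scalings. SCN7A, a sodium-sensing channel relative, was at 0.559 to 0.954 FPKM over both days. SCN4A and SCN10A were listed at 0 in 8 of 9 libraries at day 0, and SCN10A in 9 of 9 at day 18.

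Within the stretch of chromosome 2 from SCN3A to SCN7A (1406805 bp) the table held other genes between the channels. CSRNP3, which lies between SCN2A and SCN1A, was at 18.1 to 20.6 FPKM at day 0 and 30.06 to 33.8 at day 18, and TTC21B at 8.58 to 9.97 and 10.0 to 11.1, while GALNT3 stayed at or under 0.302. In the values as deposited SCN9A was the only gene of this stretch whose day 18 libraries all lay below its day 0 libraries.

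Genes that act with sodium channels were taken as lists by role, and the counts are for WT, to be read against the 38.2% of all genes that were higher there and the 34.0% that were lower. Of the 5 genes of the sodium leak channel complex, which carries a background sodium current, 4 were higher and 0 lower, with NALCN, its pore, at a log2 change of 1.76 (limma adjusted p = 1.91e-11) and UNC80 at 1.14 (5.2e-11). Of the 7 fibroblast growth factor homologous factors and calmodulins, which bind the cytoplasmic tail of the channel, 5 were tested and 4 were higher, among them CALM2 by 0.73 (9.98e-11). All 10 genes of the axon initial segment list were tested, and 8 were higher, with ANK2 at 2.33 (2.36e-17) and the adhesion molecule L1CAM at 1.97 (9.47e-15). ANK3, which encodes the ankyrin that clusters the channels at that segment, changed less, at 0.33 (0.00147). CNTN1 of that list was lower, at -0.34 (0.000185), but not past the threshold without snoRNA and scaRNA genes (-0.02, adjusted p = 0.922), where the list had 9 higher and 0 lower. In that scaling 77.1% of all genes called in WT were higher, and the median over all genes was 0.32. As deposited, the medians of these lists were 0.51, 0.61 and 0.67, against 0.03 over all genes.

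Other lists were divided. Of 9 genes of channel trafficking and turnover, 3 were higher and 4 lower, shares near those of all genes (38.2% and 34.0%). That split moved with the scaling, to 4 higher and 1 lower without snoRNA and scaRNA genes and to 3 and 2 without small RNA genes. All genes moved too. Of all genes called in WT, 52.9% were higher as deposited. Without snoRNA and scaRNA genes it was 77.1%, and without small RNA genes 68.6%. S100A10, the annexin partner p11 that carries Nav1.8 to the membrane, had the largest change at -4.74 (limma adjusted p = 2.68e-16), and NEDD4L, a ubiquitin ligase that removes channels from the membrane, was at 1.24 (1.31e-11). Of 10 genes of transcriptional repression and splicing, 8 were tested, with 3 higher and 3 lower. PTBP1, which represses neuronal exons, was at -1.38 (5.43e-11) and NOVA1, a neuronal splicing factor, at 0.99 (2.36e-07). REST, the repressor that silences sodium channel genes such as SCN2A outside neurons, was at -0.40 (5.98e-06), and at -0.09 without snoRNA and scaRNA genes (adjusted p = 0.597). Of 6 sodium pump genes, which restore the sodium gradient, 5 were tested, with ATP1B1 at 2.09 (1.05e-16) and ATP1B2 at 1.67 (3.61e-12) among 3 higher. The other 2 were lower, among them ATP1B3 at -0.58, which did not pass without snoRNA and scaRNA genes (-0.26). The list medians were -0.09, -0.02 and 1.61.

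**Figure D5:**
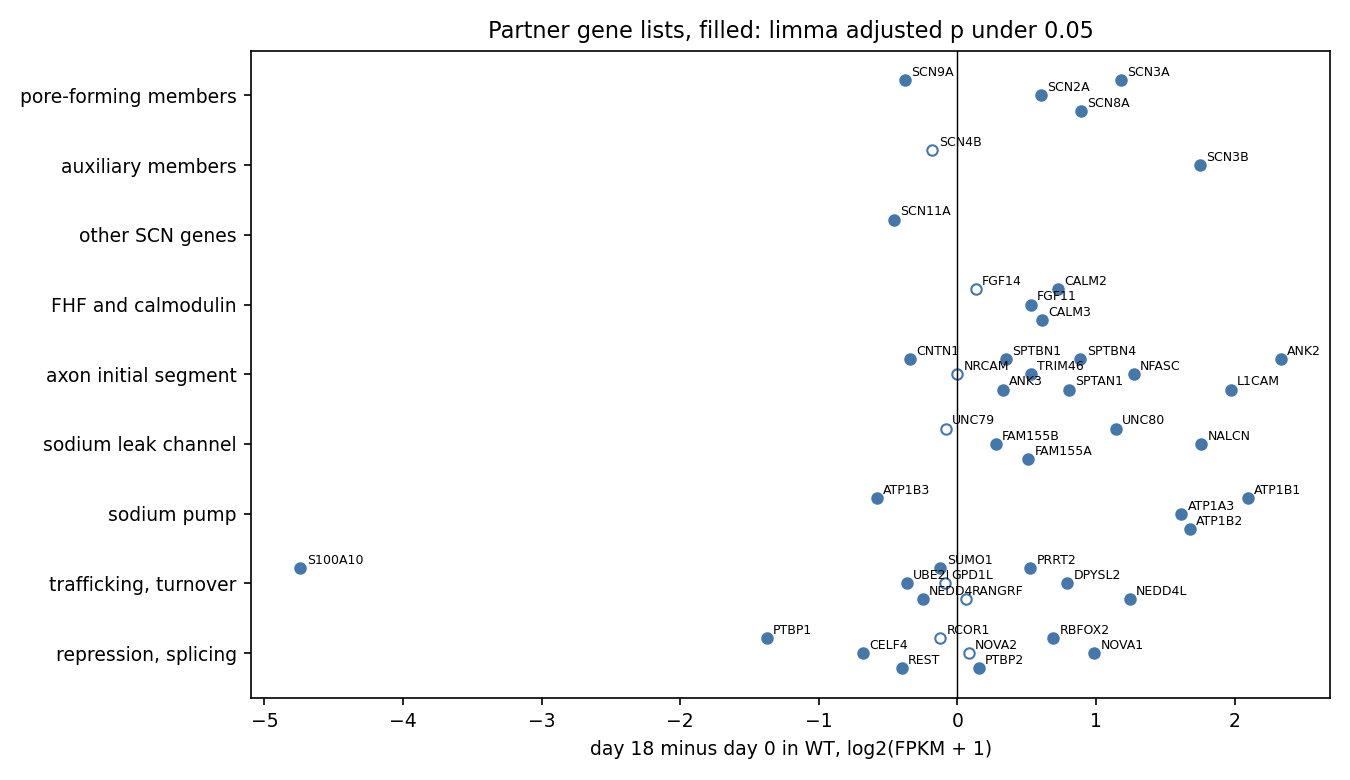
Difference between day 18 and day 0 in WT in log2(FPKM + 1) (horizontal axis) for tested genes of each list (rows), with filled points for genes past the limma threshold. The leak channel, calmodulin and axon initial segment lists lie mostly to the right of 0, from -0.34 (CNTN1, -0.02 without snoRNA and scaRNA genes) to 2.33 (ANK2), and S100A10 lies far to the left at -4.74.

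In C14R and deletion the same lists gave close counts. The axon initial segment list had 8 higher and 1 lower in each, the sodium pump list 3 and 2, and the trafficking list 3 and 4. The leak channel list had 4 higher in both, with 1 lower in C14R. Of all genes tested, 37.9% were higher and 35.0% lower in C14R, and 38.6% and 34.4% in deletion. Without snoRNA and scaRNA genes the axon initial segment list had 9 higher and 0 lower in each, the trafficking list 5 and 1 in each, the sodium pump list 3 and 0 in C14R and 3 and 1 in deletion, and the leak channel list 4 and 0 in C14R and 5 and 0 in deletion. In that scaling 80.1% of all genes called were higher in C14R and 76.8% in deletion, with medians over all genes of 0.37 and 0.31.

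The gene outside the family with the most similar profile was taken by Pearson's r of log2(FPKM + 1) over the 18 libraries. These were MLLT11 for SCN2A (r = 0.997), TNKS for SCN8A (0.998), DOCK1 for SCN9A (0.987), RAB27B for SCN3B (0.998) and HYPK for SCN4B (0.845). All points of such a correlation share the 2 days, and 1232 to 2377 genes, the member included, exceeded 0.95 for each member but SCN4B. After the mean of each day was removed, the highest r was 0.823 (TRPC1) for SCN2A, 0.862 (ANKHD1) for SCN3A, 0.866 (RNF144A) for SCN8A, 0.878 (ZSCAN12) for SCN9A, 0.847 (FHOD3) for SCN3B and 0.823 (EDNRA) for SCN4B. Each of these values is the largest r picked from many genes over 18 libraries. How large the highest r would be among unrelated genes was not tested. Whether these genes vary with the members within a day therefore cannot be told from these values. None of the genes named here was the most alike for 2 members.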

How the data were processed

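Gene expression was read from 1 table of FPKM, deposited by the authors with 1 value per gene symbol and library; the unit is from the name of the deposited table. Per the labels' protocols, RNA came from TRIzol extraction and DNase I treatment, ribosomal RNA was depleted with Ribo-Zero, and libraries were made with NEBNext Ultra. The submitters' processing notes name hg38, TopHat2, STAR and Cufflinks 2.2.1, without their roles. Annotation, library scaling and use of strand are not given in the sources used here. Libraries were grouped by construct and day from their titles. The titles of the deletion group say Depleted, and the deletion itself is named in the treatment labels. FPKM were analysed as deposited, as log2(FPKM + 1), with limma 3.58.1 in R 4.3.3 (empirical Bayes, mean-variance trend, 6 group means in 1 fit of 18 libraries), over 13785 genes with a mean FPKM of at least 1. Removing low values used all libraries and not the groups. The fit was tested on simulated data. The depth in reads is unknown, so no counting intervals are given. The sodium channel genes and the lists were chosen with earlier results of these data known. Named were all members, the other family genes, the 2 largest changes past the threshold in WT of each partner list, and the most alike genes. ANK3, CNTN1, REST, ATP1B3, and the genes between the channels on chromosome 2 were named after their values were seen. Some genes that these rules name are not reported here. The alternatives were median-of-ratios scaling, leaving out 2372 small RNA genes and rescaling to equal sums, a pseudocount of 0.1, a mean FPKM of at least 5 or none, the replicate block, array weights, only the libraries compared, and each replicate left out. Chosen after seeing the data were leaving out snoRNA and scaRNA genes alone, and dropping C14R day 18 replicate 1 where a comparison has no need of it. Library values used pandas 2.3.3 in Python 3.11.15.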

Additional observations from a re-analysis of the deposited data

How the results depend on the processing

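Under the alternatives listed with the methods, apart from those 2 chosen after seeing the data, and with each replicate left out in turn, 5 of the 6 members that passed the filter changed in each comparison of the days and 0 differed elsewhere. SCN2B was called as well when small RNA genes were left out, which made 6, and both SCN1A and SCN2B when no filter was used, which made 7. With snoRNA and scaRNA genes alone left out the number was again 5, with SCN2B in and SCN9A not past the threshold: SCN9A was at -0.05857 in WT, 0.06308 in C14R and -0.115 in deletion, and SCN4B turned to 0.04184, 0.1784 and 0.02633. Without small RNA genes, 68.6% of called genes were higher in WT (52.9% as deposited), 66.4% in C14R (52.0%) and 69.5% in deletion (52.8%), and without snoRNA and scaRNA genes 77.1%, 80.1% and 76.8%. The first of these moved the median change of all genes to 0.21, 0.18 and 0.23. Over all genes, the count past the threshold at day 18 went from 5 to 205 for C14R against WT and from 10 to 95 for deletion against WT with array weights, and for deletion to 51 without C14R replicate 1; the cause was not tested. With each replicate left out in turn, the count for C14R against WT at day 18 ranged from 4 to 126, the highest without C14R day 18 replicate 2, and that for deletion against WT from 2 to 4 at day 18 and from 2 to 5 at day 0 (4 with all libraries). For C14R against deletion it ranged from 1 to 10 at day 0 (8 with all libraries) and from 3 to 6 at day 18 (4). Over all genes the same-numbered libraries did not deviate together (45 pairs, r from -0.363 to 0.168, 6 over 0.1). The share of SNORD3A at day 0 did go with the number in part. In C14R, deletion and WT it was 52.87%, 51.45% and 58.56% in replicate 1 and 7.55%, 6.88% and 7.69% in replicate 2. In replicate 3 it was 57.35%, 18.56% and 8.63%. Whether same-numbered libraries shared a preparation cannot be told from these values. With the replicate block 5 members passed in each comparison of the days and 0 elsewhere, and all genes past the threshold in WT went from 9946 to 9932.

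Other differences that changed sign were small and not past the threshold, and the cause was not tested. Without small RNA genes, SCN2A in C14R and in deletion at day 0 became 0.007626 and -0.007769, SCN3B and SCN9A in deletion at day 0 became -0.01064 and -0.01532, and SCN4B over time in C14R became 0.03373. With median-of-ratios scaling SCN2A in C14R at day 18 became 0.003. With array weights SCN2A and SCN3B in deletion at day 18 became 0.0138 and -0.007311, and SCN9A in C14R at day 18 became -0.00811. With 1 replicate left out the differences from WT that changed sign ranged as follows. In C14R at day 0 SCN4B lay between -0.1265 and 0.01945 and SCN8A between -0.001372 and 0.04696. In C14R at day 18 SCN2A lay between -0.03881 and 0.02048, SCN3A between -0.04465 and 0.01718, SCN3B between -0.02248 and 0.0808, SCN4B between -0.03433 and 0.1229, SCN8A between -0.03769 and 0.04684 and SCN9A between -0.02563 and 0.05723. In deletion at day 0 SCN2A lay between -0.0118 and 0.02556, SCN3A between -0.0865 and 0.02479, SCN3B between -0.04047 and 0.04361, SCN4B between -0.01174 and 0.0899 and SCN9A between -0.02315 and 0.02949. In deletion at day 18 SCN2A lay between -0.02655 and 0.01192, SCN3B between -0.04566 and 0.05763, SCN4B between -0.02654 and 0.0988 and SCN8A between -0.03477 and 0.04976. The change of SCN4B over time in C14R lay between -0.1802 and 0.001644. Levels of SCN1A and SCN2B at day 0 are the least certain, since absolute depth is unknown.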
